A study of Mus musculus with 16 samples.

Results

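Crystallins and genes of lens fibre cells were followed as a set of 31 genes in the retina and retinal pigment epithelium (RPE) of the mouse. The members were chosen by gene name and not by measured values, though with earlier results of these data known. They are 2 alpha, 6 beta and 8 gamma crystallins, 10 genes of lens fibre cells and 5 regulators of the lens. Of the 31, 30 had a probe matched through its RefSeq accession, out of 20660 genes named in that way on the array. All 30 passed the filter on dim probes and were among the 19022 genes tested. Dnase2b, which encodes a nuclease that clears DNA from maturing fibre cells, had no matched probe.

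The tissue came from nm3342 mutant mice and wild-type mice of the C57Bl/6J background at 1 year and at 1 month of age, with 4 single-colour Agilent arrays in each of the 4 groups. The series puts nm3342 forward as a possible mouse model for serous detachment of the retina, where fluid collects under the retina, and the labels do not name the mutated gene. Retina and RPE were extracted together, so no array separates these tissues, and the lens is not named among the tissues taken. The labels give 4 mice per time point and tie no array to an animal, so the p-values measure the spread between labelled samples.

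Crystallins are the abundant soluble proteins that give the lens its refractive power. The alpha crystallins are small heat shock proteins that hold unfolding proteins in solution, and the beta and gamma crystallins share the Greek key fold. In rodents the gamma A to F genes are used mainly by fibre cells formed early in life, while Crygs is used by fibre cells formed later, and crystallin transcripts have also been described in the retina. The fibre genes encode the beaded filaments, membrane channels and enzymes of the fibre cell, and the regulators include transcription factors that act on crystallin genes.

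The arrays were of similar brightness. Between 82.1% and 89.6% of spots lay well above background, and the 75th percentile of the processed signal, which was set to a log2 level of 0 on each array, lay between 603 and 994 intensity units. No member's spots were saturated. The arrays lay on 2 slides, each with 2 arrays of every group. On slide 1 every group lay in both rows of the slide. On slide 2 all mutant arrays lay in row 2 and all wild-type arrays in row 1, so genotype and row cannot be told apart there. The labels call all 16 animals male, but on 3 arrays the Y-linked gene Ddx3y was not well above background, with levels of -8.47 to -8.12. The other 13 arrays held it at 0.69 to 1.19. The 3 were mutant 1-year replicate 1 and mutant 1-month replicates 2 and 3, and results that rest on them are also given without them. The markers of the named tissues were present: the 7 retina genes averaged 5.01 to 5.45 and the 5 tested RPE genes 3.02 to 3.93 on the log2 scale over the 16 arrays.

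The lens genes varied from array to array by more than the median gene. Of the 30 genes with the largest spread within groups among the 19022 tested, 12 were members, while the median gene had a within-group SD of 0.19 on the log2 scale. Crybb2, a beta crystallin that is abundant in the adult lens, had a within-group SD of 2.69 and Mip, the fibre cell water channel aquaporin 0, one of 2.85. Mutant 1-month replicate 4 held the highest level of 27 of the 30 genes, all but Gja3, Tdrd7 and Foxe3. To follow this, the log2 levels of the 9 measured fibre genes (Bfsp1, Bfsp2, Mip, Lim2, Gja3, Lgsn, Grifin, Birc7 and Lenep) were averaged into 1 value per array, called the lens level here.

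**Figure D1:**
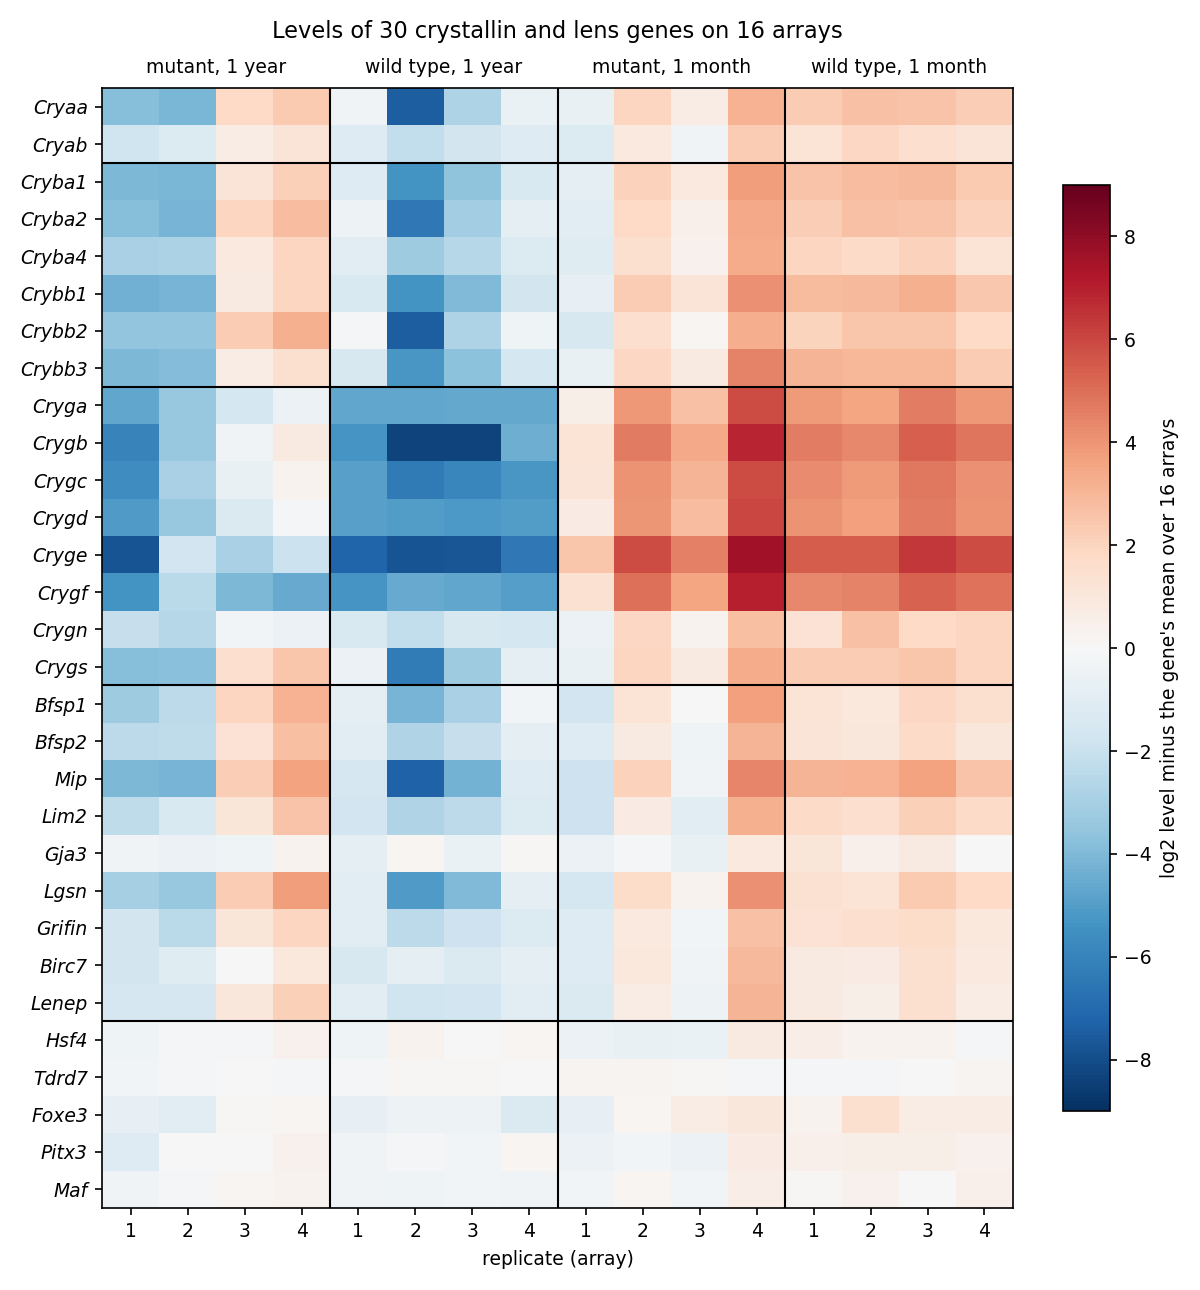
Log2 level of each of 30 genes (rows, by class) on each of 16 arrays (columns, by group), minus the gene's mean over all arrays. The lens classes change together from column to column, while Cryga to Crygf are high in both 1-month groups and low in both 1-year groups, and the 5 regulators at the bottom vary little.

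The lens level was -2.31, -2.21, 1.08 and 2.25 on the arrays of 1-year mutants, against -1.21, -3.05, -2.43 and -0.91 on those of 1-year wild types. It was -1.45, 0.90, -0.42 and 3.02 in 1-month mutants, against 1.31, 1.14, 1.81 and 1.15 in 1-month wild types. The mutants thus overlapped between the ages, whereas every 1-year wild type lay below every 1-month wild type, so that in wild types age and lens level cannot be told apart from group means alone. In such bulk tissue, fewer cells of a type and less RNA per cell cannot be told apart either.

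Crystallins moved with the fibre genes within groups. With the 4 group means and the lens level in 1 model (limma), 14 of the 16 crystallins had a slope on the lens level past an adjusted p of 0.05 over 19013 genes, and all 14 slopes were positive. The background was 0.153%, or 29 of the 19013 genes. None of the 5 regulators passed (smallest adjusted p = 0.29, Pitx3). A slope of 1 means that a gene changed by as much as the mean of the fibre genes.

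Slopes were steepest among the beta crystallins and flattest, of those called, in Crygn and Cryab. The 6 beta crystallins had slopes between 1.03 ± 0.04 (SE) for Cryba4 and 1.51 ± 0.20 for Crybb2 (largest adjusted p = 0.0042). Cryaa, the lens-enriched alpha crystallin, had a slope of 1.39 ± 0.21 (adjusted p = 0.0143), and Cryab, the alpha crystallin that many tissues make, one of 0.66 ± 0.05 (adjusted p = 1.92e-05). Crygs had a slope of 1.33 ± 0.15 and Crygn one of 0.53 ± 0.09 (adjusted p = 0.00102 and 0.0309). Slopes of the gamma A to D genes lay between 0.83 ± 0.11 for Cryga and 1.31 ± 0.12 for Crygb. Cryge and Crygf did not pass, with slopes of 0.78 ± 0.23 and 0.37 ± 0.21 (adjusted p = 0.778 for both). Without mutant 1-year replicate 2 the slope of Cryge was 1.12 (adjusted p = 7.9e-05) and that of Crygf 0.60 (adjusted p = 0.351). For these genes the 1 slope fitted to all groups stands for unlike slopes at the 2 ages. Within groups, Crygf had slopes of 1.20 in 1-month mutants and 1.02 in 1-month wild types, against -0.10 and -0.30 at 1 year. Cryge had 1.09 and 1.03 at 1 month, against 0.61 and 0.55 at 1 year. Unlike slopes were not particular to these genes. Cryaa, in the same order of genotypes, had 0.84 and 0.26 at 1 month, against 1.49 and 3.01 at 1 year. The call of Cryaa ended without mutant 1-year replicate 1, 2 or 4, and that of Crygn ended under 13 of 25 other settings. Without the 3 arrays whose sex-linked genes go against the label, 10 of 16 crystallins passed.

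**Figure D2:**
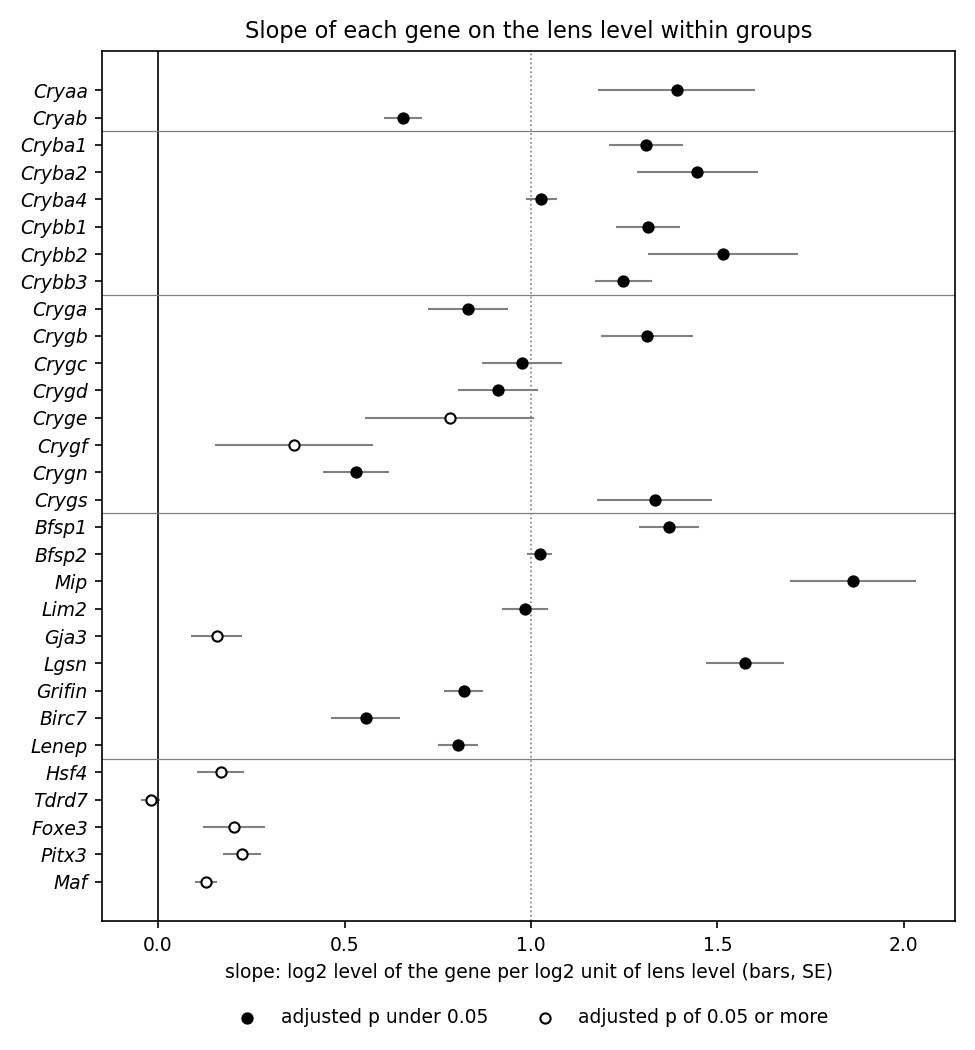
Slope of each gene on the lens level of the array within groups (points, with SE bars from 16 arrays), filled where limma's adjusted p was under 0.05. Each fibre gene was fitted on the mean of the other 8. Fibre genes and most crystallins lie between 0.5 and 1.9, and the regulators, Gja3 and Crygf lie nearer to 0.

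The 2 alpha crystallins differed in range. Cryaa lay at 2.32, 2.03, 7.92 and 8.49 in 1-year mutants, against 5.83, -1.27, 3.36 and 5.55 in 1-year wild types. At 1 month it lay at 5.45, 8.05, 6.76 and 9.26 in mutants, against 8.43, 8.76, 8.70 and 8.30 in wild types. The lowest and the highest array were 1487-fold apart. Cryab lay at 3.51, 4.07, 5.96 and 6.43 in 1-year mutants, against 4.15, 3.06, 3.61 and 4.11 in 1-year wild types. In 1-month mutants it lay at 4.06, 6.14, 4.98 and 7.60, against 6.54, 7.16, 6.83 and 6.47 in 1-month wild types. For Cryab the lowest and the highest array were 23.3-fold apart, and its lowest level, 3.06, was still above the 75th percentile of that array. Wild types did not overlap between the ages for either gene, and mutants did.

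Among the beta crystallins, all 3 acidic (Cryba) and all 3 basic (Crybb) members were highest in mutant 1-month replicate 4 and lowest in wild-type 1-year replicate 2. Crybb2 lay at 0.36, 0.33, 6.18 and 7.13 in 1-year mutants, against 3.76, -3.52, 1.11 and 3.54 in 1-year wild types. At 1 month the levels of Crybb2 were 2.47, 5.42, 4.09 and 7.14 in mutants, against 5.87, 6.38, 6.39 and 5.72 in wild types. Mutant 1-year replicates 3 and 4 lay within the range of the 1-month arrays for this gene. Crybb1 lay at -3.22, -3.11, 1.86 and 3.03 in 1-year mutants, against -0.30, -4.30, -2.92 and -0.60 in 1-year wild types, and at 0.37, 3.36, 2.24 and 5.23 in 1-month mutants, against 3.94, 3.98, 4.28 and 3.50 in 1-month wild types. Cryba4, whose gene is the neighbour of Crybb1 on chromosome 5, spanned -0.71 to 5.85. Cryba1 spanned -1.06 to 8.02, Cryba2 -3.24 to 6.63 and Crybb3 -3.47 to 6.21. Cryaa and Cryab were lowest and highest on the same arrays.

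The gamma A to F genes parted from these. Crygc lay at -1.82, 0.87, 3.12 and 4.09 in 1-year mutants, against -1.17, -2.58, -2.09 and -1.50 in 1-year wild types. In 1-month mutants it lay at 4.94, 7.83, 6.83 and 9.60, against 8.04, 7.58, 8.47 and 7.89 in 1-month wild types. Every 1-year array was below every 1-month array of either genotype. Crygf lay at -5.02, -2.12, -3.73 and -4.20 in 1-year mutants, against -5.00, -4.17, -4.36 and -4.60 in 1-year wild types. Its 1-month levels were 1.68, 5.29, 3.91 and 7.32 in mutants, against 4.68, 4.82, 5.66 and 5.23 in wild types. Again the ages did not overlap. Cryge lay at -6.47, -0.42, -1.66 and -0.68 in 1-year mutants, against -5.93, -6.51, -6.45 and -5.18 in 1-year wild types, and at 3.75, 7.13, 5.82 and 8.84 in 1-month mutants, against 6.73, 6.74, 7.61 and 7.18 in 1-month wild types. It was well above background on 3 of 4 arrays of 1-year mutants, on 2 of 4 of 1-year wild types and on all 8 at 1 month.

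Cryga, Crygb and Crygd had the same split between the ages. Cryga lay at -2.91, -1.67, 0.17 and 1.21 in 1-year mutants, against -2.92, -2.92, -2.83 and -2.87 in 1-year wild types, where it did not follow the lens level (slope over those 4 arrays, -0.00056). At 1 month Cryga was between 2.27 and 7.61 in mutants and between 5.29 and 6.33 in wild types. Crygd lay between -2.85 and 2.11 in 1-year mutants, between -2.87 and -2.60 in 1-year wild types, between 3.01 and 8.31 in 1-month mutants and between 5.94 and 6.98 in 1-month wild types. Crygb spanned the widest range of these, from -8.33 in wild-type 1-year replicate 3 to 6.88 in mutant 1-month replicate 4, and was well above background on 2 of 4 arrays of 1-year wild types. The gamma A to F genes are close copies of each other, and the probes' sequences were not used here, so signal shared between copies was not examined. Crygf had a second probe, well above background on 1 of 4 arrays in each 1-year group, which gave the same direction in both genotypes.

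Arrays of mutants with like lens levels show the split within 1 genotype. Mutant 1-year replicate 3 had a lens level of 1.08 and mutant 1-month replicate 2 one of 0.90. Cryaa was at 7.92 and 8.05 on these arrays, Crygs at 7.21 and 7.58, and Crybb2 at 6.18 and 5.42. Crygc was at 3.12 and 7.83, Cryge at -1.66 and 7.13, and Crygf at -3.73 and 5.29. Cryaa, Crygs and Crybb2 thus differed by less than 1 log2 unit between these arrays, and Crygc, Cryge and Crygf by more than 4. Some other crystallins lay between these sets: Crybb1 was at 1.86 and 3.36, Crybb3 at 2.45 and 3.60, and Crygn at -1.64 and 0.44. Mutant 1-month replicate 2 is 1 of the 3 arrays whose sex-linked genes go against the label.

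**Figure D3:**
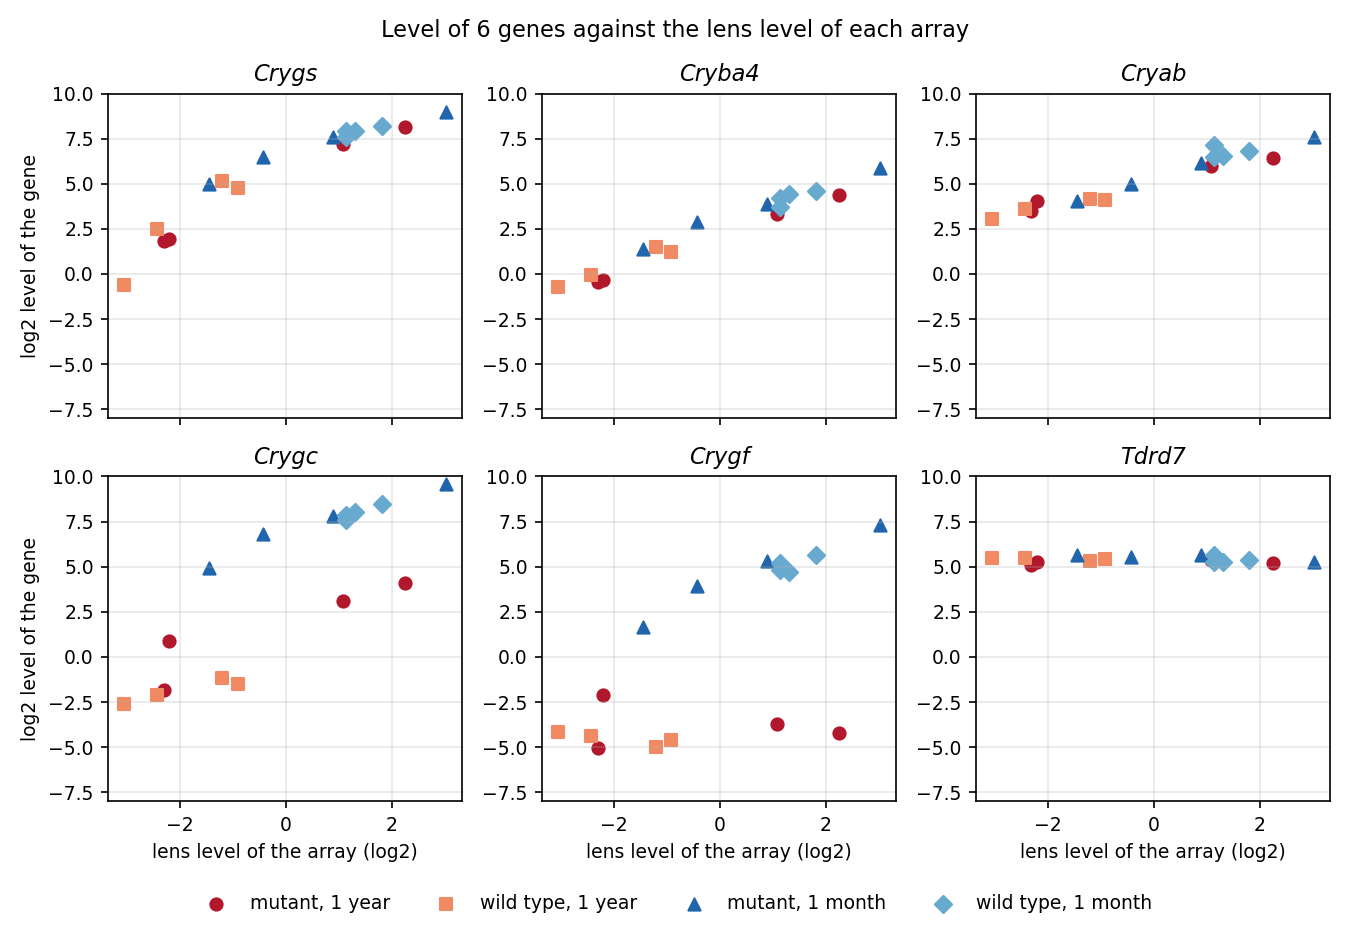
Log2 level of 6 genes against the lens level of the array (mean log2 level of 9 fibre genes), 1 point per array and 1 colour and marker per group. Crygs, Cryba4 and Cryab are higher on arrays of higher lens level at both ages, Crygc and Crygf at 1 year lie below the 1-month arrays of the same lens level, and Tdrd7 is flat.

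Crygn and Crygs, the gamma crystallins outside the A to F set, differed from each other. Crygn, a divergent member between the beta and gamma branches, lay at -3.43, -3.96, -1.64 and -1.89 in 1-year mutants, against -2.76, -3.59, -2.84 and -3.01 in 1-year wild types. It lay at -1.95, 0.44, -1.07 and 1.32 in 1-month mutants, against -0.08, 1.25, 0.37 and 0.54 in 1-month wild types. The ages overlapped in mutants, through mutant 1-month replicate 1, and did not in wild types. Crygs lay at 1.84, 1.92, 7.21 and 8.14 in 1-year mutants, against 5.13, -0.63, 2.48 and 4.79 in 1-year wild types. Its 1-month levels were 4.99, 7.58, 6.48 and 8.99 in mutants, against 7.93, 7.92, 8.17 and 7.60 in wild types. The ages overlapped in mutants, as for Cryaa and Crybb2, and did not in wild types.

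The bases just upstream of the gamma A to F genes, which moved together, are shown with those of Crygn and Crygs for contrast. They are the 120 bases before each gene's start from RefSeq (build GRCm38.p6), written 5′ to 3′ on the gene's own strand. Capitals mark TATATA and TTTGTG, which were chosen after these sequences had been read.
Cryga (chr1:65103364-65103483, minus strand): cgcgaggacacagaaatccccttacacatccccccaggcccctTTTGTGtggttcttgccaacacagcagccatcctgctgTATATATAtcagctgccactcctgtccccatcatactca
Crygb (chr1:65082291-65082410, minus strand): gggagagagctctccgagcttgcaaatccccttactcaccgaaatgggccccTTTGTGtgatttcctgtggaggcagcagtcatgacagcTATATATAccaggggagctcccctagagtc
Crygc (chr1:65073533-65073652, minus strand): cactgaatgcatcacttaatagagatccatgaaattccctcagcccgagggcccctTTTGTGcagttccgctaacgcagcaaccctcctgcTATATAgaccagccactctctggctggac
Crygd (chr1:65063441-65063560, minus strand): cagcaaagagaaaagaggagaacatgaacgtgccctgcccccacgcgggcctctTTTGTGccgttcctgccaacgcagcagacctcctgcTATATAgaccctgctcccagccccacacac
Cryge (chr1:65051164-65051283, minus strand): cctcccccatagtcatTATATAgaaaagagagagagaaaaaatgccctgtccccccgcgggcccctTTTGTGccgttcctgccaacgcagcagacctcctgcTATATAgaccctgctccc
Crygf (chr1:65926402-65926521, plus strand): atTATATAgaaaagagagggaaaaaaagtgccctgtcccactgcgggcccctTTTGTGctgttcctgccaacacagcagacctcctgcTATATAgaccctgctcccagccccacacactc
Crygn (chr5:24757849-24757968, minus strand): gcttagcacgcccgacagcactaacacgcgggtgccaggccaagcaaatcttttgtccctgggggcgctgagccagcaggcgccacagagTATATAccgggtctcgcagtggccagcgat
Crygs (chr16:22811411-22811530, minus strand): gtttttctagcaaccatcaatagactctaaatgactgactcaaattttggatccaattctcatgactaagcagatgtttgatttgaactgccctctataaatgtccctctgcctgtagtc

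All 6 gamma A to F promoters held both motifs, with the nearest TATATA beginning 18 to 37 bases before the start. As the motifs were chosen from these related sequences, their presence in all 6 is a description and no test. Searched on both strands of windows of the same length, TATATA was in 2.51% and TTTGTG in 7.3% of 32851 RefSeq promoter entries, and both were in 0.304%. Among the 22 other members with an entry, TATATA was in Cryaa and Crygn, TTTGTG in Crybb1, and none held both. TGCTGA, a core of the site that Maf proteins bind, was in 7 of these 22 (Cryaa, Cryba1, Cryba4, Crybb1, Crybb3, Lenep and Lgsn), in 0 of the 6, and in 8.18% of all entries. At that share, 0 of 6 is not unusual. The most alike pair of the 6 was Crygd and Crygf, with 84.7% identical bases. Cryge, Crygd, Crygc, Crygb and Cryga follow each other on chromosome 1 in that order with no other coding gene between them, and Crygf lies apart from them on the same chromosome. Cryab, Maf and Hsf4 were not matched to a promoter entry.

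With age, the gamma A to F genes and Crygn were lower in 1-year than in 1-month mutants, and no other member passed in mutants with all arrays in the fit. The question is which lens genes change between the ages, and group means alone were compared first. In mutants 7 of 30 members were lower (limma, adjusted p under 0.05), where 2.93% of all genes were lower and 6.7% passed in either direction. The median change was -1.48 over the 30 members and -0.05 over all genes tested, on the log2 scale. Crygf averaged -3.77 ± 1.22 in 1-year mutants and 4.55 ± 2.37 in 1-month mutants (SD, n = 4 each), a change of -8.32 ± 0.88 (SE), or 319-fold lower (adjusted p = 5.21e-05). Cryge changed by -8.69 ± 1.18 (adjusted p = 0.000375, with 3 of 4 arrays of 1-year mutants well above background). Cryga, Crygb, Crygc and Crygd changed by -5.74 to -6.29 (largest adjusted p = 0.0161) and Crygn by -2.41 ± 0.64 (adjusted p = 0.0369).

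Within slides, the 6 gamma A to F genes changed in mutants by -6.72 to -9.23 on slide 1 and by -4.17 to -8.36 on slide 2. Crygn was lost in mutants without mutant 1-month replicate 2 or 4 or mutant 1-year replicate 1 or 2, and Crygb without mutant 1-month replicate 2 or mutant 1-year replicate 2. Without the 3 arrays whose sex-linked genes go against the label, Cryge (-7.22, adjusted p = 0.00687) and Crygf (-7.85, adjusted p = 0.00783) passed, and Cryga to Crygd lay between -5.04 and -4.58 (smallest adjusted p = 0.0702).

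In wild types 17 of 30 members were lower at 1 year, where 5.05% of all genes were lower and 12.4% passed in either direction. These were 13 crystallins (all but Cryaa, Cryba2 and Crybb2), the fibre genes Mip, Lim2 and Grifin, and Foxe3. Each gene had 1 error estimate for all 4 groups, so errors in wild types rest in part on the spread of mutants. The SD of Cryaa was 0.22 in 1-month and 3.28 in 1-year wild types, against 1.64 and 3.49 in mutants. That of Cryga was 0.44 and 0.04 in wild types, against 2.24 and 1.84 in mutants. The median change was -4.10 over the 30 members and -0.03 over all genes tested. Cryge averaged -6.02 ± 0.61 in 1-year and 7.07 ± 0.42 in 1-month wild types (SD, n = 4 each), a fitted change of -13.08 ± 1.18 (adjusted p = 4.71e-06). Since Cryge and Crygb were well above background on 2 of 4 arrays of 1-year wild types, and Mip on 3 of 4, the fitted sizes of their changes rest in part on readings at background and no fold is given. The other gamma A to F genes changed by -8.61 to -11.39 (largest adjusted p = 0.00011). The beta crystallins that passed changed by -3.75 to -5.96, Crygs by -4.96 ± 1.50 (adjusted p = 0.0432) and Cryab by -3.02 ± 0.71 (adjusted p = 0.0116). The calls of Crygs and Cryba4 ended under 15 and 12 of 28 other settings. Both ended when any 1 of the 4 wild-type 1-month arrays was left out. They also ended without the 3 arrays whose sex-linked genes go against the label. Without wild-type 1-month replicate 2 or wild-type 1-year replicate 2, 11 members passed. All 6 gamma A to F genes passed without any 1 array, and within slides they changed by -8.31 to -13.22 on slide 1 and -8.90 to -12.95 on slide 2. The lens level was lower in all 1-year than in all 1-month wild types, and its part in these changes is given next.

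At an equal lens level the gamma A to F genes stayed lower at 1 year in both genotypes, by more than any other crystallin. With the lens level in the model, 11 of 16 crystallins were lower in mutants (background 3.25% lower, 6.98% in either direction) and 9 of 16 in wild types (background 2.1% lower, 6.2% in either direction). In mutants Cryga, Crygb, Crygc and Crygd changed by -4.95 to -5.22 and Cryge and Crygf by -8.06 ± 0.90 and -8.02 ± 0.85 (SE, largest adjusted p = 0.000135). In wild types Cryga to Crygd changed by -5.90 to -7.12, Cryge by -10.54 ± 1.15 and Crygf by -8.44 ± 1.08 (largest adjusted p = 0.00038). These 12 calls were kept under all 23 to 25 other settings run for them with the lens level held. Without the 3 arrays whose sex-linked genes go against the label, the 6 changes in mutants lay between -7.73 and -4.23 (largest adjusted p = 0.0127).

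Some beta crystallins fell by less. Crybb3 changed by -2.07 ± 0.30 in mutants and by -1.77 ± 0.39 in wild types (adjusted p = 0.00102 and 0.0156), and Crybb1 by -2.10 ± 0.35 in mutants and -1.68 ± 0.44 in wild types (adjusted p = 0.00243 and 0.04). Crygn changed by -1.98 ± 0.35 in mutants and -1.84 ± 0.45 in wild types (adjusted p = 0.00385 and 0.0272). Cryba4 changed by -0.92 ± 0.16 and Cryba1 by -1.62 ± 0.40 in mutants (adjusted p = 0.00353 and 0.0257), and neither passed in wild types, where they changed by -0.41 ± 0.21 and -1.25 ± 0.51. Of these 8 calls none was kept under all settings. In mutants those of Crybb1, Crybb3, Cryba4 and Crygn ended only without the 3 arrays whose sex-linked genes go against the label (adjusted p = 0.12, 0.0565, 0.149 and 0.0779). Those of Cryba1 in mutants, and of Crybb1 and Crygn in wild types, ended under 10 of 25, 14 of 24 and 9 of 24 settings, and that of Crybb3 in wild types under 4 of 24.

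The other 5 crystallins did not pass at an equal lens level. Crybb2 changed by -0.05 ± 0.81 in mutants and 0.06 ± 1.03 in wild types, Cryba2 by -0.82 ± 0.65 and -0.36 ± 0.83, Cryaa by -1.07 ± 0.84 and -0.66 ± 1.07, and Crygs by -1.15 ± 0.62 and -0.63 ± 0.78, in that order of genotypes. Cryab changed by -0.17 ± 0.20 in mutants (adjusted p = 0.669) and -0.88 ± 0.26 in wild types (adjusted p = 0.0625). Changes of a few fold in Cryaa, Cryba2, Crybb2 and Crygs lie within these errors. Cryab in wild types passed, among other settings, with slide as a block (-0.90, adjusted p = 0.0102) and without mutant 1-month replicate 1 (adjusted p = 0.04), and Cryaa, Cryba2 and Crygs passed in mutants without the 2 arrays farthest from the median lens level (-1.61, -1.28 and -1.61).

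**Figure D4:**
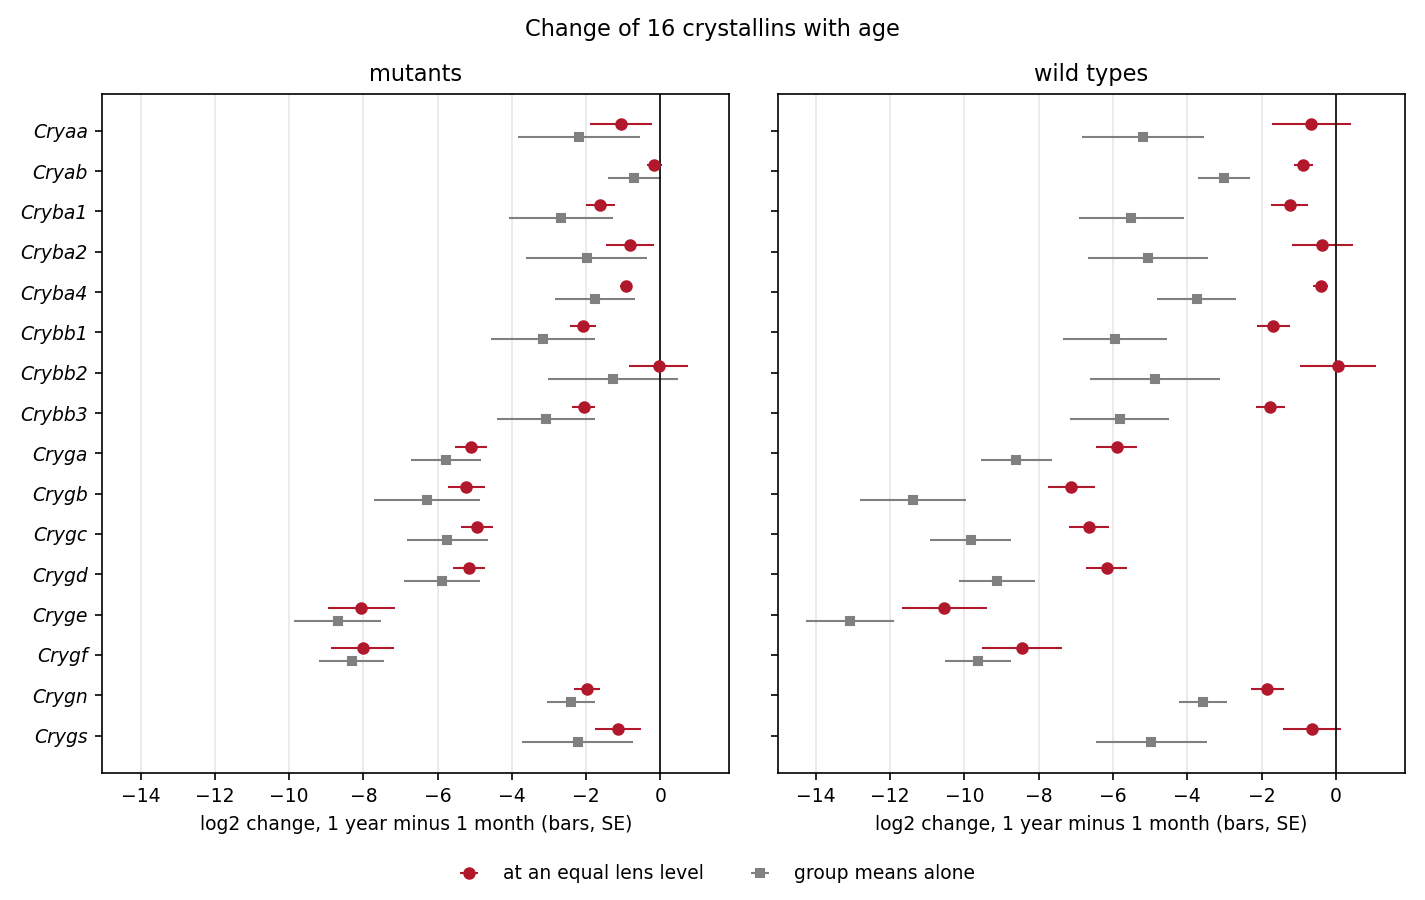
Log2 change of 16 crystallins, 1 year minus 1 month, in mutants (left) and wild types (right), from group means alone (grey squares) and at an equal lens level (red circles), with SE bars from 16 arrays. Holding the lens level moves most crystallins towards 0 and leaves Cryga to Crygf at -4.95 or lower in both genotypes.

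The lens levels of the ages overlap only in mutants, so in wild types the values at an equal lens level rest on slopes shared with all groups. Where slopes within groups differ by age, the change at an equal lens level depends on the lens level at which it is read. Cryaa, Cryba2, Crybb2 and Crygs had steeper slopes at 1 year than at 1 month in both genotypes. Those of Crybb2 were 1.01 and 0.54 in 1-month mutants and wild types, against 1.57 and 3.13 at 1 year. Cryga had slopes of 1.14 and 1.29 in 1-month mutants and wild types, against 0.77 and -0.00056 at 1 year. Those of Crygf were also lower at 1 year, while those of Crygb were not (1.20 and 1.30 at 1 month, 1.27 and 1.97 at 1 year). Crygb was well above background on 2 of 4 arrays of 1-year wild types, so its slope of 1.97 there rests in part on readings at background. A fit of the 8 mutant arrays alone was chosen after the data had been seen. At an equal lens level the gamma A to F genes, Crygn, Cryba4, Crybb1 and Crybb3 were lower in it (limma, adjusted p under 0.05). The share of all genes that were lower in this fit is not given here. Cryga to Crygd changed there by -4.91 to -5.28, Cryge by -8.04 ± 1.20 and Crygf by -7.97 ± 1.08 (SE, largest adjusted p = 0.0176). Cryba1 did not pass (-1.67 ± 0.38, adjusted p = 0.0614).

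The fibre genes were of 2 kinds. Mip lay at -4.28, -4.41, 1.99 and 3.41 in 1-year mutants, against -1.69, -7.46, -4.50 and -1.35 in 1-year wild types. At 1 month its levels were -2.07, 1.84, -0.51 and 4.15 in mutants, against 2.82, 2.91, 3.38 and 2.38 in wild types. Its slope on the mean of the other 8 fibre genes was 1.86 ± 0.17 (SE). Mip was not well above background in wild-type 1-year replicate 2, its lowest reading, which bears on this slope and on its spread. Bfsp1 and Bfsp2, the beaded filament proteins filensin and phakinin, had slopes of 1.37 ± 0.08 and 1.02 ± 0.03, Lgsn, a relative of glutamine synthetase, 1.57 ± 0.11, and Lim2, a fibre cell membrane protein, 0.98 ± 0.06. Grifin, a galectin-related lens protein, had a slope of 0.82 ± 0.05, Lenep one of 0.80 ± 0.05 and Birc7, an inhibitor of apoptosis, one of 0.56 ± 0.09 (adjusted p = 0.0346, the largest of the 8).

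Gja3 went apart from the other fibre genes. It encodes a connexin, a gap junction protein of fibre cells. It lay at -1.58, -1.79, -1.68 and -1.01 in 1-year mutants, against -2.08, -1.14, -1.93 and -1.17 in 1-year wild types. At 1 month it lay at -1.82, -1.43 and -0.41 in mutant replicates 1, 2 and 4, with replicate 3 below these, against -0.21, -0.83, -0.46 and -1.26 in wild types. Its lowest and highest arrays were 3.64-fold apart and its slope was 0.16 ± 0.07 (adjusted p = 0.828). No fibre gene passed between the ages in mutants. In wild types Mip (-6.62 ± 1.85, adjusted p = 0.0306), Lim2 (-3.78 ± 1.05, adjusted p = 0.0294) and Grifin (-2.93 ± 0.89, adjusted p = 0.0445) were lower at 1 year. Each of these 3 calls ended when any 1 of the 4 wild-type 1-month arrays was left out (adjusted p = 0.0524 to 0.0664 for Mip, 0.0542 to 0.0661 for Lim2 and 0.0656 to 0.0926 for Grifin). They also ended without wild-type 1-year replicate 2 or 3 (adjusted p = 0.0894 and 0.0636 for Mip, 0.0725 and 0.0603 for Lim2, 0.107 and 0.0841 for Grifin), and Lim2 and Grifin without replicate 1. The call of Grifin ended under 16 of 27 other settings. Among them were fits without wild-type 1-year replicate 4 and without mutant 1-month replicate 2 or 3. It also ended without the 3 arrays whose sex-linked genes go against the label.

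No regulator had a slope on the lens level past the adjusted threshold with all arrays in the fit. The slopes of Pitx3, Maf, Hsf4 and Foxe3 were positive, with unadjusted p of 0.000626, 0.000986, 0.0188 and 0.0296. Tdrd7, an RNA granule protein needed for a clear lens, lay between 5.12 and 5.67 on all 16 arrays (slope -0.02 ± 0.03, adjusted p = 0.828). Hsf4, the heat shock factor of the lens, lay at -2.04, -1.84, -1.78 and -1.22 in 1-year mutants, against -1.32, -1.69 and -1.46 in wild-type 1-year replicates 2, 3 and 4, with replicate 1 below these. It lay at -2.16, -2.31, -2.23 and -0.80 in 1-month mutants, against -1.05, -1.36, -1.30 and -1.72 in 1-month wild types. The mutant array with the highest lens level, 1-month replicate 4, also held the highest Hsf4. Pitx3, a homeobox factor whose loss gives mice without a lens, spanned -3.10 to -1.23 (slope 0.22 ± 0.05), and Maf, which activates crystallin genes, spanned -1.04 to -0.08 (slope 0.13 ± 0.03). Without mutant 1-year replicate 2 the slope of Pitx3 passed at 0.28 (adjusted p = 0.00819). Foxe3, a forkhead factor of the lens epithelium, was called between the ages in wild types: it averaged -4.89 ± 0.40 in 1-year and -3.38 ± 0.47 in 1-month wild types (SD, n = 4 each), a change of -1.50 ± 0.38 (SE, adjusted p = 0.0172). At an equal lens level it changed by -0.84 ± 0.42 (adjusted p = 0.297), and the call ended without wild-type 1-month replicate 2 or wild-type 1-year replicate 4 (adjusted p = 0.056 and 0.0517). No regulator was called between the ages in mutants, but Tdrd7 was without mutant 1-month replicate 4 (-0.37, adjusted p = 0.0259).

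No member passed the test between mutants and wild types. At 1 year 0 of 30 members passed (limma, adjusted p under 0.05), where 0.857% of all genes did, and at 1 month 0 of 30, where 2.72% did. At an unadjusted p under 0.05 there were 5 members at 1 year (Cryga, Crygb, Crygc, Crygd and Cryge, against 11.4% of all genes) and 0 at 1 month (against 15.2%). Crygb averaged -2.22 ± 3.10 in mutants and -6.57 ± 2.06 in wild types at 1 year (SD, n = 4 each), a fitted difference of 4.36 ± 1.44 (SE, adjusted p = 0.216). It was well above background on 2 of 4 of these wild-type arrays, as was Cryge, so the sizes of both differences rest in part on readings at background. Crygc differed by 3.40 ± 1.09 (adjusted p = 0.198) and Cryge by 3.71 ± 1.18 (adjusted p = 0.191). Other probes of Crygc differed by 3.04 ± 1.13 and 1.94 ± 1.00 in a limma fit of all probes (adjusted p = 0.425 and 0.644), so the size depends on the probe.

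Over the 30 members the median difference between mutants and wild types was 1.58 at 1 year, and the lens level averaged -0.30 ± 2.32 in mutants and -1.90 ± 1.01 in wild types (SD, n = 4 each). At 1 month the median difference was -0.73, and the lens level averaged 0.51 ± 1.93 in mutants and 1.35 ± 0.32 in wild types. The medians over all genes tested were -0.01 and 0.02. At 1 month the slides disagreed: Crygf differed by 1.55 on slide 1 and by -2.65 on slide 2, and Mip by 0.13 and -4.17. The lens level split in the same way, with mutant and wild-type means of 1.96 and 1.23 on slide 1 and of -0.94 and 1.48 on slide 2. Genotype and row cannot be told apart on slide 2, and the part of the row was not tested.

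**Figure D5:**
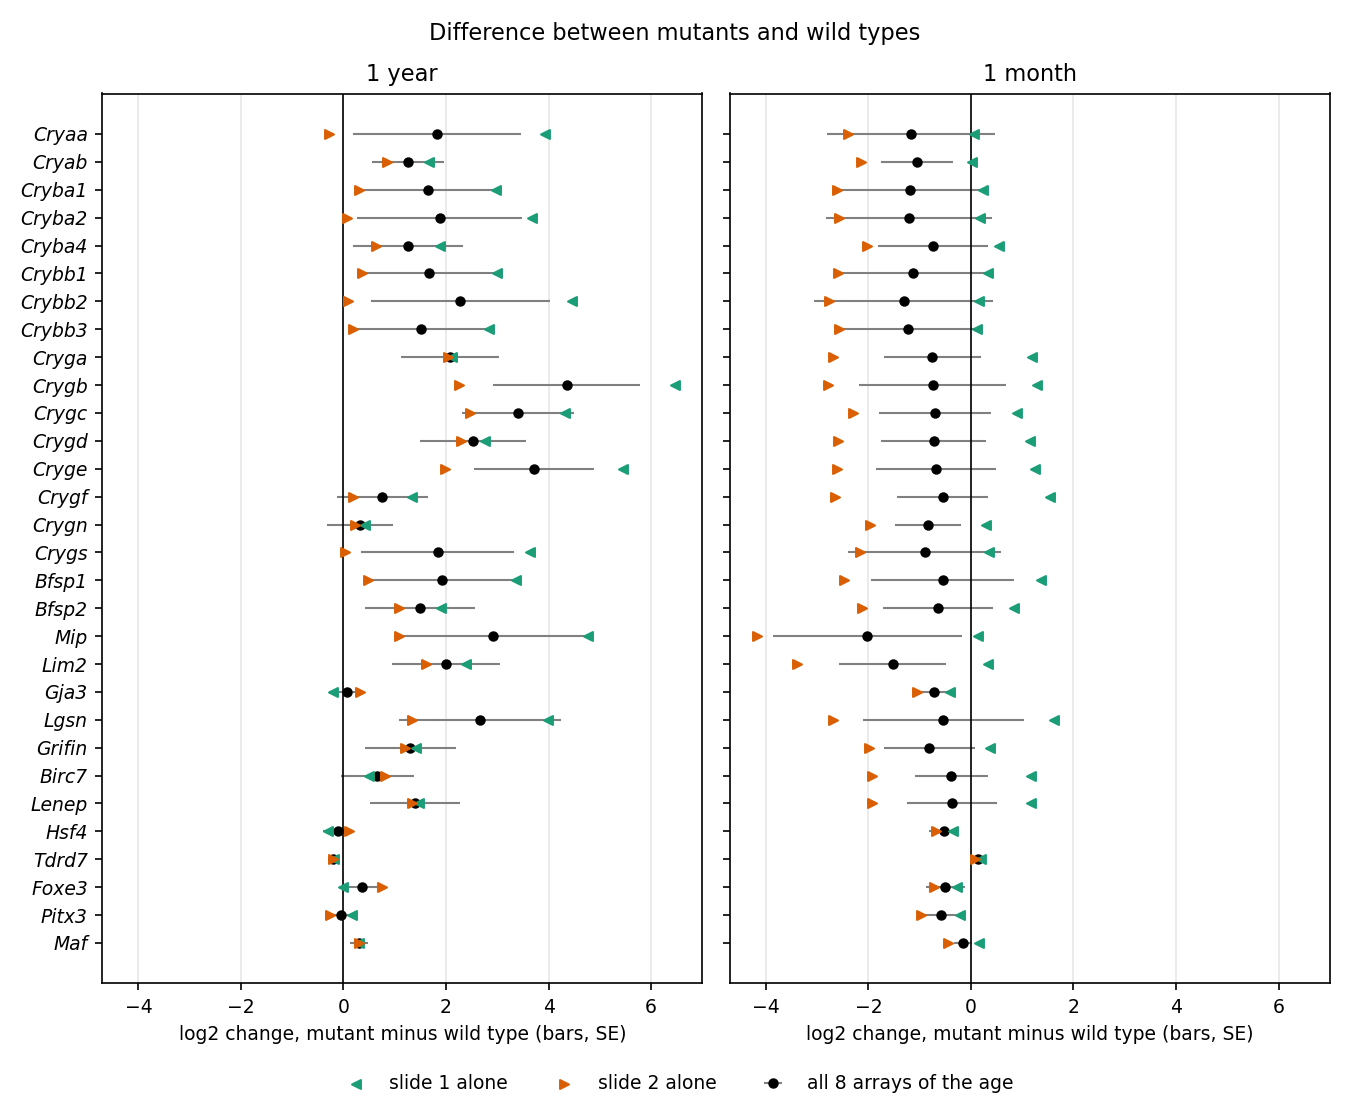
Log2 difference, mutant minus wild type, of 30 genes at 1 year (left) and 1 month (right), with SE bars from 16 arrays, and the difference within each slide (triangles). At 1 month slide 1 lies near or above 0 and slide 2 below it for nearly all crystallins and fibre genes, and every regulator lies within 1 of 0.

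At an equal lens level, again 0 of 16 crystallins passed at 1 year (background 0.563%) and 0 of 16 at 1 month (background 2.16%). Crygb differed at 1 year by 2.26 ± 0.52 (adjusted p = 0.092) and Crygc by 1.83 ± 0.45 (adjusted p = 0.114), and Crygf by 0.17 ± 0.90 (adjusted p = 0.96). Leaving out mutant 1-year replicate 1, which had the lowest lens level of the mutants and is 1 of the 3 arrays whose sex-linked genes go against the label, made calls at 1 year. Crygc differed without it by 2.65 (adjusted p = 0.00122) and Crygb by 2.92 (adjusted p = 0.0426) at an equal lens level, and from group means alone Cryge differed by 5.10 (adjusted p = 0.0151) and Crygc by 4.53 (adjusted p = 0.0451). Without all 3 such arrays, Crygc differed by 2.62 at an equal lens level (adjusted p = 0.00375) and Cryge by 5.10 from group means alone (adjusted p = 0.0366). Mutant 1-year replicate 2, with a lens level of -2.21 close to the -2.31 of replicate 1, held Cryge at -0.42 against -6.47 and Crygc at 0.87 against -1.82. Without replicate 2 the difference of Cryge at an equal lens level was 0.58 (adjusted p = 0.551). At 1 month, Hsf4 passed without mutant 1-month replicate 4 (-0.88, adjusted p = 0.0281).

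The change with age was not shown to differ between the genotypes for any member. The difference between the 2 age changes passed for 0 of 30 members (limma, background 0.421%). At an equal lens level it passed for 0 of 16 crystallins (background 0.174%). From group means alone, 7 members had an unadjusted p under 0.05, against 10.8% of all genes. Crygc had the smallest adjusted p, at 4.09 ± 1.54 from group means (adjusted p = 0.314) and 1.71 ± 0.64 at an equal lens level (adjusted p = 0.435). Without mutant 1-year replicate 1 the value for Crygc at an equal lens level was 2.66 (adjusted p = 0.0448).

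Relatives of the members were not called for a slope on the lens level. Of 6 lens genes outside the members, 7 crystallin relatives and enzyme crystallins, 12 small heat shock proteins and heat shock factors and 10 transcription factors of the eye field, 0 had a slope past an adjusted p of 0.05, where 0.153% of all genes did. Capn3, a calpain with a lens form, had a slope of 0.10 ± 0.06. Crym, a thyroid hormone binding protein that serves as a lens crystallin in kangaroos, had a slope of -0.01 ± 0.03. It was higher in mutants than in wild types at 1 year (3.95 to 4.42, against 3.23 to 3.43, change 0.91 ± 0.11, adjusted p = 0.000933). Cryz, the zeta crystallin of guinea pigs, had a slope of -0.02 ± 0.03. Hspb2, whose gene is the neighbour of Cryab on chromosome 9, had a slope of 0.19 ± 0.07 and Hspb1 one of 0.18 ± 0.13 (adjusted p = 0.778 for both). Pax6 and Six3, the factors that start the eye field, had slopes of -0.04 ± 0.02 and 0.01 ± 0.03.

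Calls among these 4 lists were few in the other comparisons. Between the ages in mutants 0 of 6 lens genes, 3 of 7 crystallin relatives (Crym, Cryl1 and Crybg3, all higher), 0 of 12 small heat shock genes and, of the 10 eye field factors, Mafg (lower) passed. In wild types Tmod1 of the lens genes was higher, as were 1 of 7 crystallin relatives (Cryl1) and 1 of 12 small heat shock genes (Hspb8). Between the genotypes Crym passed at 1 year and Tmod1 at 1 month (0.53 ± 0.13, adjusted p = 0.0478).

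Nor were markers of the retina, the RPE and neighbouring tissues. None of 6 cornea, 5 ciliary body and iris, 5 skeletal muscle, 7 reactive glia, 7 retina and 5 RPE genes had a slope past an adjusted p of 0.05. The largest slope among the first 2 genes of each list was 0.31 ± 0.16 for Optc of the ciliary body and iris. Krt12 and Krt5 of the cornea had slopes of 0.03 ± 0.35 and 0.12 ± 0.26, Acta1 and Ckm of muscle 0.06 ± 0.10 and 0.09 ± 0.11, and Col9a1 0.08 ± 0.04. Gfap and Vim of glia had slopes of -0.02 ± 0.07 and 0.08 ± 0.03, Sag of rods -0.06 ± 0.02, and Rlbp1 and Rpe65 of the RPE -0.02 ± 0.03 and -0.0044 ± 0.05. The mean of the 6 cornea genes lay between 2.50 and 4.52 in 1-year mutants, 0.74 and 4.48 in 1-year wild types, 1.19 and 3.38 in 1-month mutants and 0.54 and 3.17 in 1-month wild types. Between the ages in mutants 0 of 6 cornea genes, 2 of 5 ciliary body and iris genes (Myoc higher, Col9a1 lower), 0 of 5 muscle genes, 5 of 7 glia genes (all higher), 2 of 7 retina genes and 1 of 5 RPE genes (all lower) passed. In wild types Lum of the cornea, Myoc and Myh4 were higher and Col9a1 lower, 2 glia genes were higher and 1 lower, 1 retina gene was lower and 2 RPE genes were higher. Between the genotypes 5 glia genes were higher and 1 retina gene lower in mutants at 1 year, and Lum, Acta1 and 3 RPE genes were higher in mutants at 1 month. The part of cornea and of other neighbouring tissue in the lens genes' values was not tested beyond these slopes.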

How the data were processed

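RNA of 16 samples was measured on 1 Agilent array each. Per the file headers, the deposited scanner files hold fluorescence intensity per spot from Agilent Feature Extraction 11.0.1.1, background-subtracted, with marks for outlier spots and for signal well above background, for a probe design on mm9. A log2 matrix deposited by the authors, whose columns share 1 distribution, served as an alternative. Here log2 of the processed intensity minus each array's 75th percentile was averaged over a probe's spots, without outlier spots. A probe counted as well above background where at least 50% of its spots were, and probes so on at least 4 of 16 arrays were kept (49230 of 55681). Names came from RefSeq accessions (GRCm38.p6), with the probe of highest mean per gene. limma 3.58.1 (R 4.3.3, with data.table version 1.17.8) fitted 4 group means, with and without the lens level, with two-sided p-values and Benjamini-Hochberg adjustment over all genes tested. The 9 fibre genes were left out of fits with the lens level. Errors are SE of the fit unless given as SD, and each gene's SE rests on 1 spread shared by all 4 groups. The code was tested on simulated data. The members, lists and tests were chosen with earlier results of these data known. Named genes were all members, the first 2 genes and the called genes of each list, and the 8 other genes with the smallest adjusted p for a positive slope. A few results on genes of the further lists are not reported here. Array pairs with identical values numbered 0. The number of arrays limits the precision.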

Additional observations from a re-analysis of the deposited data

Results flagged for a closer look

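Among 124 series of 4 arrays (30 genes and the lens level in 4 groups), 2 arrays lay apart from the other 3 of their group by more than Dixon's limit of 0.829, which chance alone gives in about 1 of 20 series. Crybb3 in wild-type 1-month replicate 4 was at 4.05, below the 4.75 to 4.83 of the other 3 arrays (gap over range 0.899). Hsf4 in mutant 1-month replicate 4 was at -0.80, above the -2.31 to -2.16 of the others (gap over range 0.902). That array had the highest lens level of the 16, and the part of the lens level in this value was not tested.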

How the results depend on the processing

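No result reversed under any setting run. Members lower with age numbered 4 in mutants and 6 in wild types on slide 1 alone, 1 and 6 on slide 2 alone, and 11 and 9 with the lens level as a covariate, where the 9 fibre genes are not tested. Without the 3 arrays whose sex-linked genes go against the label, 2 members passed with age in mutants (6 at an equal lens level) and 1 between genotypes at 1 year (1 at an equal lens level). Leaving out 1 array at a time gave 5 to 7 members with age in mutants, 11 to 21 in wild types, 0 to 2 between genotypes at 1 year, 0 to 1 at 1 month and 0 for the difference of the age changes. At an equal lens level it gave 10 to 11, 6 to 9, 0 to 2, 0 and 0 to 1 crystallins in these comparisons, and 12 to 14 for the slope. A pairing of the samples by replicate number was not seen, as only 2 of 16 correlations of same-numbered deviations were over 0.1 (range -0.54 to 0.17). Such correlations cannot exclude a pairing. The replicate block gave 7 members with age in mutants and 20 in wild types, 10 and 6 crystallins at an equal lens level, 11 for the slope and 0 between genotypes. Of single-gene values under all settings that left out no single array, 2598 kept their call, 79 lost it, 19 gained one and 82 uncalled ones moved by over 1 SD. Normexp on the mean signal, which was planned, was not run, and the median signal was used in its place as a choice made after seeing the data. Signal over background limits Crygb, Cryge and Mip at 1 year, which were not well above background on every array.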

Other observations

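Besides the 14 crystallins, 15 genes followed the lens level within groups. The 8 with the smallest adjusted p that carry a full gene name were Sox1ot, a transcript that overlaps the lens factor gene Sox1 (slope 0.58 ± 0.04, SE, limma adjusted p = 1.92e-05), Rspo1, a secreted activator of Wnt signalling (0.49 ± 0.04), Lctl, a klotho family member (0.97 ± 0.08), B3gnt5, a glycosyltransferase (0.57 ± 0.05), Serpind1, a thrombin inhibitor (0.54 ± 0.05), Nwd1 (0.55 ± 0.06), S100a4, a calcium-binding protein (0.29 ± 0.04), and Tent5c, a poly(A) polymerase (0.39 ± 0.06, adjusted p = 0.0221, the largest of the 8). Lctl had the widest range, from -3.32 to 2.08 on the log2 scale over the 16 arrays. Sox1 itself had a slope of 0.16 ± 0.06 (adjusted p = 0.778).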
